A study of Mus musculus with 10 samples.

Results

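The genes described here are 44 regulators of cell death: the Bcl2 family, the caspases, the adaptors of death receptors, the mitochondrial proteins that start the caspase cascade, the enzymes of lytic death and the p53 family. They were measured on whole-genome Affymetrix arrays of medullary thymic epithelial cells (mTECs) that lack or carry Fezf2, a transcription factor of these cells. Each gene was read from the probe set that the platform annotation assigns to its symbol alone, and, where there were several, from the one with the highest mean signal. Of the 44 genes, 40 had such a probe set and 39 passed a filter on low signal and were tested, among 14087 genes tested in all.

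The 5 wild-type (WT) arrays and the 5 Fezf2 knockout (KO) arrays came from mice of C57BL/6 background aged 3 weeks. Both genotypes were sorted in the same way from the thymus, as cells without CD45 and with EpCAM and a high level of CD80. The sort takes the mature mTECs. Which part of Fezf2 was deleted, and in which cells, is not given in the sources used here. Nor do the labels say that each array is a separate mouse, so every p-value below measures the spread between arrays, which may be technical. Arrays keep the numbers of their labels, 1 to 5 for WT and 6 to 10 for KO.

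Apoptosis is decided at the mitochondrion and at the cell surface. In the mitochondrial route, BH3-only proteins neutralise the anti-death members of the Bcl2 family and free the pore formers, which let cytochrome c out to assemble the apoptosome and switch on caspase-9. In the surface route, death receptors recruit Fadd and caspase-8, and Cflar holds that complex in check. Another set of caspases serves inflammation and, through gasdermin D, opens the plasma membrane. Mature mTECs are short-lived cells that are replaced throughout life.

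The signal of Fezf2 was between 5054 and 5895 on the WT arrays and between 12.1 and 18.3 on the KO arrays, as labelled. Epcam lay between 6994 and 7985 and Cd80 between 599 and 1008 over all arrays, and the summed signal of 8 mTEC markers was 52224 to 59421 in WT and 54784 to 57785 in KO. Most of that sum came from H2-Aa and Krt8, which did not pass. Of the 8 markers, Aire fell (log2 change -0.45, adjusted p = 0.0282), Krt5 (0.71, 0.0026) and Tnfrsf11a (0.76, 4.6e-06) rose, and the other 5 did not pass. The median signal of an array was between 36.5 and 38.0. Log2 signals correlated at 0.987 or above within a genotype and at 0.975 to 0.988 across genotypes. KO 6 stood apart: 67.8% of all genes had their lowest or highest KO value there, and its summed signal of 3 proliferation markers was 758, against 1367 to 2264 on the other KO arrays and 2443 to 2888 in WT. That sum was thus lower on every KO array than on any WT array. Of the 3 markers, Top2a fell (log2 change -0.78, limma adjusted p = 0.0464), and Mki67 (-0.56) and Cdk1 (-0.64) did not pass. WT 1 held the lowest or highest WT value of 54.4% of all genes. Xist was near background, at 21.1 to 30.0, on WT 2, KO 6 and KO 8, so the sexes were mixed in both genotypes.

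Of the 39 regulators tested, 9 were lower and 5 were higher in KO at an adjusted p under 0.05 (limma, Benjamini-Hochberg adjustment over all genes tested). These 14 are 35.9% of the 39, where 29.2% of all genes passed. The lower calls were 23.1% of the regulators against 16.2% of all genes, and the higher calls 12.8% against 13.0%. The WT and KO values did not overlap for 12 of the 39 (30.8%, against 22.1% of all genes). The genes therefore changed at a rate near that of the array as a whole, and most changes were small: 1 of the 14 reached 2-fold, and the median log2 change over the 39 was -0.10, beside -0.03 over all genes. The gene past 2-fold was Pmaip1, which rose. The 9 lower genes were Cflar, Gsdmd, Casp4, Casp1, Ripk3, Bik, Dffa, Hrk and Endog. The 5 higher genes were Pmaip1, Casp12, Bok, Bcl2l14 and Casp8. The roles described below hold 2 to 9 tested genes each, so counts within a role are small and stand beside the 29.2% of all genes. All changes are differences of log2(signal + 16), which understates the change of dim genes. Folds are taken from these differences and are not ratios of the mean signals. Means are given ± SD over the 5 arrays of a genotype.

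**Figure D1:**
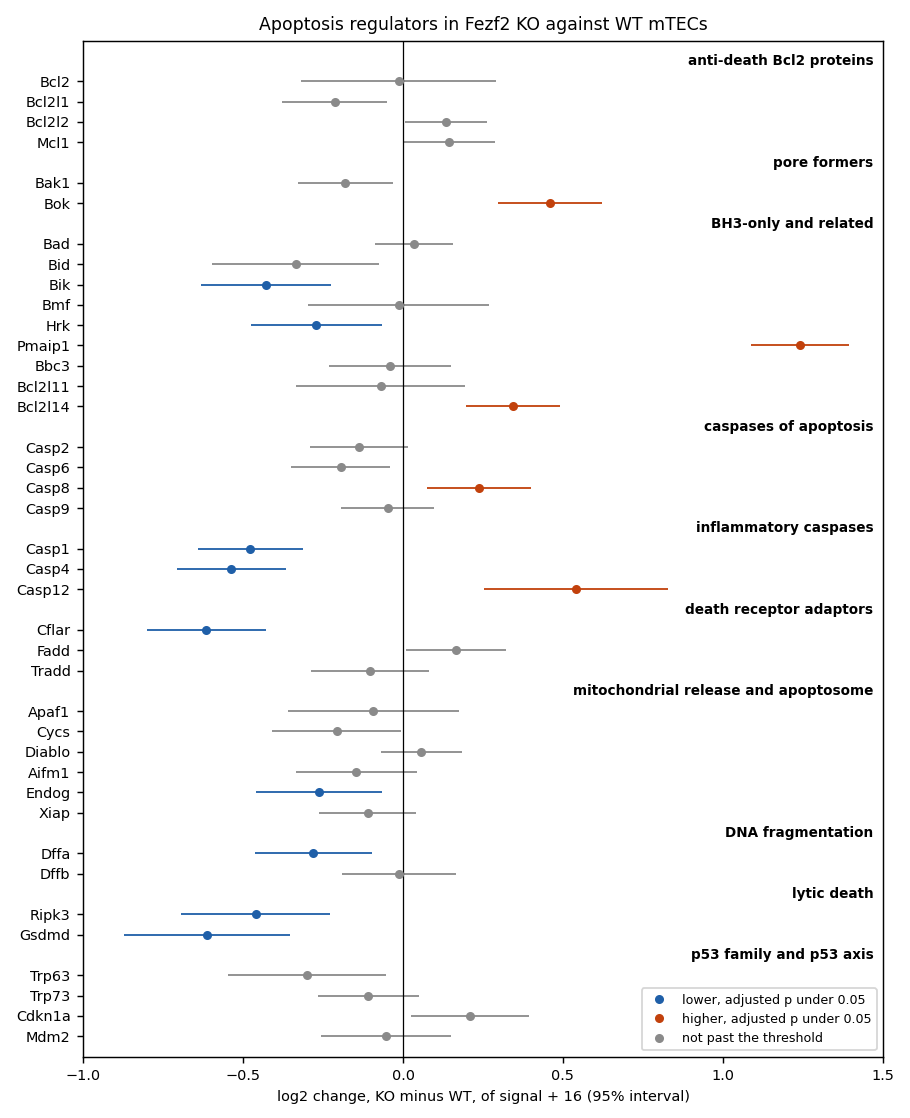
Log2 change, KO minus WT, of signal + 16 for the 39 tested genes, ordered by role; points are the fitted changes and bars the 95% intervals, blue for lower, orange for higher and grey for not past the threshold. Pmaip1 stands at 1.24, while the other 38 genes lie between -0.62 and 0.54.

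The anti-death Bcl2 proteins, which hold the pore formers and BH3-only proteins inactive, gave no call in either direction among the 4 tested. Bcl2 had a mean signal of 232 ± 60.7 in WT and 224 ± 8.12 in KO, with a log2 change of -0.01 (95% interval -0.32 to 0.29). Its WT arrays ran from 169 to 312 and enclosed all KO values. Bcl2l1, which encodes Bcl-xL, had a mean of 684 ± 77.9 in WT and 585 ± 13.1 in KO, a log2 change of -0.21 that lay just outside the threshold (adjusted p = 0.0516). It passed when WT 1 (adjusted p = 0.0433) or WT 2 (0.0126) was left out. Mcl1, a short-lived protein that Pmaip1 binds, went from 2587 ± 200 to 2859.5 ± 174 (log2 change 0.15, adjusted p = 0.119), and its 5 other probe sets gave log2 changes between -0.10 and 0.21. Bcl2l2 was above all WT arrays on every KO array, 412 ± 19.4 against 453 ± 24.0, yet did not pass (log2 change 0.13, adjusted p = 0.112). Bcl2l10 did not pass the filter, with 10.4 ± 0.923 in WT and 10.5 ± 1.33 in KO. Bcl2a1a, whose near-identical copies share probe sets, is not analysed here.

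The pore formers permeabilise the outer mitochondrial membrane. Bok, a relative of Bax and Bak1, rose. Its signal was 357, 347, 291, 309.9 and 286 on WT 1 to 5 and 411, 448, 425, 461 and 467 on KO 6 to 10. All KO arrays lay above all WT arrays. The change was 1.37-fold (log2 change 0.46, SE 0.074, limma adjusted p = 6.5e-04). Bak1 had a mean of 164 ± 11.9 in WT and 143 ± 7.10 in KO. Its groups did not overlap, but the log2 change of -0.18 missed the threshold (adjusted p = 0.0647). It passed without WT 1 (0.0406). Bax is not analysed here.

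Among the 9 BH3-only and related genes, 2 rose, 2 fell and 5 did not pass. Pmaip1 encodes Noxa, a BH3-only protein that binds Mcl1 and is a known target of p53. Its signal on WT 1 to 5 was 2069, 2061, 2151, 2322 and 2354, and on KO 6 to 10 it was 5602, 5097, 5830, 4852 and 4691. Each KO array was well above the highest WT array, and no array stood apart from its genotype. The mean rose from 2191 ± 139 to 5214 ± 487. The fitted rise was 2.36-fold (log2 change 1.24, SE 0.070, limma adjusted p = 3.2e-07). With any 1 array left out the log2 change stayed between 1.20 and 1.28. No second probe set was available for it.

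Bcl2l14, a Bcl2 relative also known as Bcl-G, rose as well. It measured 487, 413, 507, 489 and 481 in WT and 585, 641, 634, 610 and 562 in KO. The groups did not overlap, and WT 2 was the lowest array. The rise was 1.27-fold (log2 change 0.34, SE 0.068, limma adjusted p = 0.0024), and its other probe set gave 0.26.

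Bik, a BH3-only protein of the endoplasmic reticulum, fell. Its WT values were 274, 250.3, 229.8, 232 and 232, and its KO values 224, 168, 167, 176 and 153. KO 6 came close to the WT arrays, and the other KO arrays were far below them. The fall was 1.35-fold (log2 change -0.43, SE 0.094, limma adjusted p = 0.0045). Of its other probe sets, which gave -0.35 and -0.28, the one whose name carries no suffix for shared sequence did not pass (adjusted p = 0.0709).

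Hrk, a BH3-only protein best known from neurons, measured 70.4, 97.5, 106, 108 and 93.6 in WT and 72.8, 73.9, 76.4, 78.0 and 74.8 in KO. WT 1 lay below all KO arrays and the other WT arrays above them. The fall was 1.21-fold (log2 change -0.27, SE 0.094), with an adjusted p of 0.0469 that passed narrowly. The call held without WT 1 (0.0020) and was lost when any one of WT 2 to 5 or KO 6 to 10 was left out (0.0694 to 0.114). It was also lost after median centring (0.0541), without the filter (0.0557) or with Xist presence as a block (0.0633). The other, dimmer probe set of Hrk gave -0.20, with 30.3 to 31.2 in WT and 22.2 to 26.2 in KO, without overlap but close to the filter level.

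The 5 BH3-only genes that did not pass had log2 changes from -0.34 to 0.03. Bid, which caspase-8 cleaves to link the surface route to the mitochondrion, had the largest of them, with 166 ± 30.3 in WT and 128 ± 18.1 in KO (log2 change -0.34, adjusted p = 0.0534). It passed without WT 1 (0.0399), WT 2 (0.0271) or KO 6 (0.0194). Bcl2l11 (Bim), a central killer of thymocytes, had 423 ± 74.0 against 399 ± 46.4 and a log2 change of -0.07 (95% interval -0.33 to 0.20). Bbc3 (Puma), which like Pmaip1 is a p53 target, had 143 ± 15.9 against 139 ± 13.2, a log2 change of -0.04 (95% interval -0.23 to 0.15). The interval of Bbc3 thus lay wholly below that of Pmaip1, 1.09 to 1.39. Bmf, which senses loss of attachment, had a log2 change of -0.01 (95% interval -0.30 to 0.27), and Bad, which growth factor signals silence by phosphorylation, one of 0.03 (-0.09 to 0.16).

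**Figure D2:**
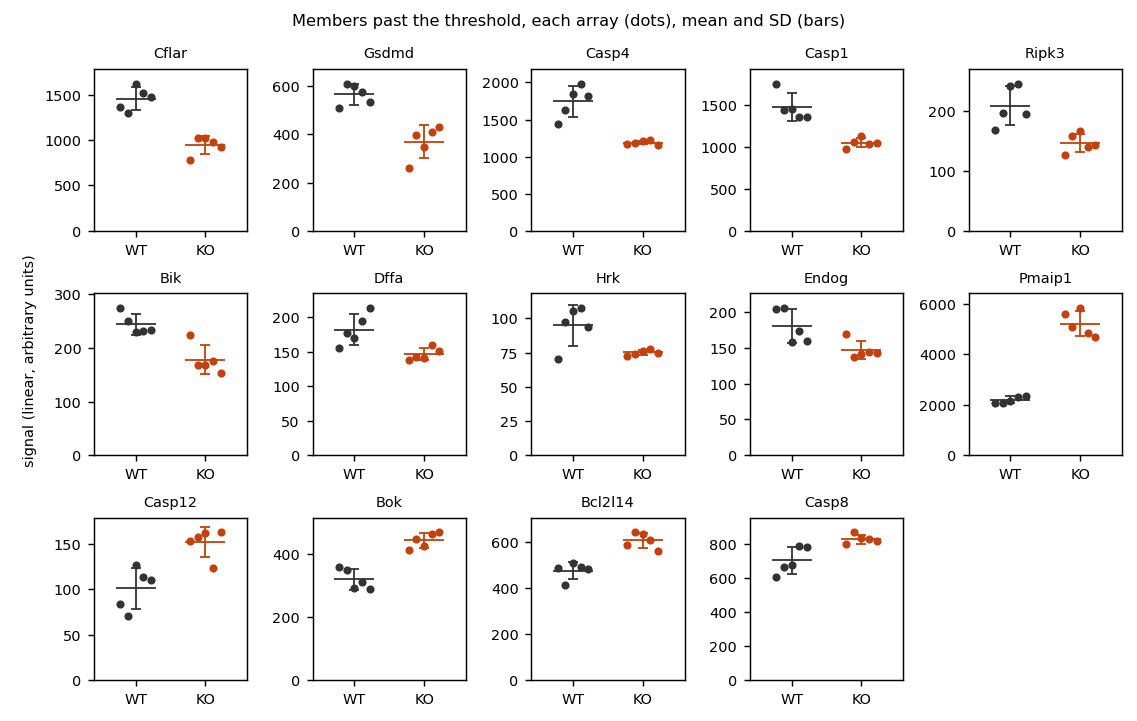
Signal on each array, on a linear axis from 0, of the 14 genes past the threshold, the 9 lower ones first; dots are arrays in the order of their numbers, wide bars the mean and thin bars the SD of 5. Pmaip1 runs from 2061 to 2354 in WT and from 4691 to 5830 in KO, and for Dffa, Hrk, Endog and Casp12 the genotypes overlap.

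The caspase genes that changed lie in 2 runs of neighbours. Casp1, Casp4 and Casp12 are consecutive protein-coding genes on chromosome 9, of which the first and second fell and the third rose. Cflar and Casp8 are consecutive protein-coding genes on chromosome 1, of which Cflar fell and Casp8 rose. The 250 bases upstream of the annotated start of each of these 5 genes are shown because neighbours of related sequence moved in opposite directions (RefSeq, GRCm38.p6, 5′ to 3′). Capitals mark the matches to 4 motifs searched on both strands, GAAANNGAA (an interferon response core), TTCNNNGAA (the STAT site), GGANNTTCC (an NF-kB core) and GGGATTTCC, an NF-kB site that was added after the Casp4 stretch had been read.
Casp1, chr9:5298267-5298516, + strand: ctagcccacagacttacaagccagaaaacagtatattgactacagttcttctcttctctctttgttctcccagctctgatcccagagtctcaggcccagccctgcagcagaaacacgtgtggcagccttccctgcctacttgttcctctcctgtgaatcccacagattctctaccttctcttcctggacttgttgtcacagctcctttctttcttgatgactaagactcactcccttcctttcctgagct
Casp4, chr9:5308599-5308848, + strand: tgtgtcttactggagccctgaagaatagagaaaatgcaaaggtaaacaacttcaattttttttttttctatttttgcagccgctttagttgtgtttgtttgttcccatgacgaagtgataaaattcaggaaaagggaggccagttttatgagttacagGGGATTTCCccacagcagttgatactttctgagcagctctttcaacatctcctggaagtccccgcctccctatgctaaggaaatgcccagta
Casp12, chr9:5345226-5345475, + strand: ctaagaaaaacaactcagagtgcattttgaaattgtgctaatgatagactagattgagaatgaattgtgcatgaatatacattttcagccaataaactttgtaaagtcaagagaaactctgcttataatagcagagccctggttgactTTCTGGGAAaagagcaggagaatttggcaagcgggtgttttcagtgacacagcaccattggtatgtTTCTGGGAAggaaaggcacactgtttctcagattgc
Cflar, chr1:58711241-58711490, + strand: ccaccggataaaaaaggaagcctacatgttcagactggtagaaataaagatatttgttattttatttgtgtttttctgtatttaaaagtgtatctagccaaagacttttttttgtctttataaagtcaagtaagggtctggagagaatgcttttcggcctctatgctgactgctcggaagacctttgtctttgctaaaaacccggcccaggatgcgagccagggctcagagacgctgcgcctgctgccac
Casp8, chr1:58802252-58802501, + strand: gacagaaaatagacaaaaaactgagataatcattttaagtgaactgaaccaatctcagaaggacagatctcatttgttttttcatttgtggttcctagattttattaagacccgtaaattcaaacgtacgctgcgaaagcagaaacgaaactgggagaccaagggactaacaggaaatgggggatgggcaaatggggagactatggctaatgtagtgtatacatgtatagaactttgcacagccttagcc

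Casp12 held 2 STAT matches. Of all 32851 promoter stretches, 7.02% held at least 1 and 0.317% held 2 or more. The share with 2 or more was counted for this motif alone, of the 4 searched. Its cut is the number found in the Casp12 stretch, so it does not measure how unusual that stretch is. Casp4 held the single GGGATTTCC, which 0.283% of the stretches held, but that motif was chosen from this stretch. Casp1, Cflar and Casp8 held none of the 4. Of the 38 listed genes with a promoter stretch, GAAANNGAA was found in 1, Xiap, and in 7.13% of all stretches. TTCNNNGAA was found in Casp12 and Ripk1, and GGANNTTCC in Bak1 and in 3.59% of all stretches. The GC content was 49.2% for Casp1, 41.6% for Casp4, 39.2% for Casp12, 42.8% for Cflar and 39.6% for Casp8, beside a median of 52.4% over all stretches. RefSeq lists 2 starts for Casp4, and the first is shown. A match describes these letters only and shows no binding.

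All 3 inflammatory caspases changed, 2 down and 1 up, where 29.2% of all genes passed. Casp4 encodes the mouse caspase-11, which senses lipopolysaccharide inside the cell and cleaves gasdermin D. Its signal was 1446, 1625, 1849, 1985 and 1817 in WT and 1174, 1183, 1217, 1217 and 1161 in KO. The KO arrays were tightly grouped below all WT arrays. The mean fell from 1744 ± 211 to 1190 ± 25.6. The fitted fall was 1.45-fold (log2 change -0.54, SE 0.078, limma adjusted p = 3.1e-04).

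Casp1, the inflammasome caspase that matures interleukin-1 beta and interleukin-18, measured 1752, 1438, 1450.3, 1353 and 1356 in WT and 977, 1055, 1130, 1027 and 1049 in KO. WT 1 was well above the other WT arrays, and the genotypes did not overlap. The fall was 1.39-fold (log2 change -0.48, SE 0.075, limma adjusted p = 5.3e-04). Without WT 1 the log2 change was the smallest of the leave-one-out fits, -0.41.

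Casp12, a caspase of the endoplasmic reticulum, measured 84.2, 70.8, 127, 113 and 111 in WT and 154, 159, 163, 123 and 163 in KO. KO 9 lay just below WT 3, and the other KO arrays were above every WT array. The rise was 1.46-fold (log2 change 0.54, SE 0.13, limma adjusted p = 0.0087), and the other probe set of Casp12 gave 0.72.

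Both genes of lytic death fell, where 16.2% of all genes did. Gsdmd encodes gasdermin D, the pore that caspase-1 and caspase-11 open. It measured 511, 610.5, 601, 574 and 533 in WT and 258, 398, 348, 409.8 and 430.1 in KO. All KO arrays were below all WT arrays, and KO 6 was the lowest. The fall was 1.53-fold (log2 change -0.61, SE 0.12, limma adjusted p = 0.0022). Ripk3, the kinase that activates Mlkl in necroptosis, measured 167, 196, 240.4, 245 and 194 in WT and 126, 157, 166, 139 and 143 in KO. The lowest WT array, WT 1, was just above the highest KO array, KO 8. The fall was 1.38-fold (log2 change -0.46, SE 0.11, limma adjusted p = 0.0063). Neither gene had a second probe set. Casp1, Casp4 and Gsdmd are also expressed by macrophages, and so myeloid markers were set beside them: of 9 genes, 8 were tested, of which Lyz2, Csf1r and Adgre1 fell and Itgam, Mpeg1 and Fcgr3 rose. The log2 changes were -0.43 for Lyz2, -0.52 for Csf1r and -0.67 for Adgre1, and 0.47 for Itgam, 2.62 for Mpeg1 and 1.08 for Fcgr3. The summed signal of the 9 was 5356 to 5761 in WT and 4077 to 5197 in KO. Most of it came from Lyz2 (4291 ± 190 in WT and 3187 ± 326 in KO), so the sum hides the rise of the dimmer Mpeg1 and Fcgr3. None of the 9 was at or below the 40th percentile on every array, but Itgax was above it on WT 5 and KO 9 only. The part of myeloid cells in the caspase values was not tested. In such bulk samples, fewer cells of a type and less RNA per cell cannot be told apart.

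Among the 4 caspases of apoptosis, Casp8 rose and the other 3 did not pass. Casp8, the initiator at death receptors, measured 606, 664, 673, 787 and 781 in WT and 795, 866, 832, 828 and 813 in KO. The lowest KO array was only slightly above WT 4 and WT 5. The rise was 1.18-fold (log2 change 0.24, SE 0.075, limma adjusted p = 0.0321). The call was lost without WT 1, WT 2, WT 3, KO 7, KO 8, KO 9 or KO 10 (adjusted p 0.0501 to 0.0766) and held without WT 4, WT 5 or KO 6. Casp6, an executioner, had 548 ± 50.8 against 475 ± 23.8 (log2 change -0.20, adjusted p = 0.0589) and passed without WT 4 (0.0216). Casp9, the caspase of the apoptosome, had 65.5 ± 5.63 against 62.8 ± 2.54 (log2 change -0.05, 95% interval -0.19 to 0.10). Casp2, a caspase of the stress response, had a log2 change of -0.14 (95% interval -0.29 to 0.01).

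Of the 3 adaptors tested, Cflar fell. It encodes c-FLIP, a caspase-8 relative without catalytic activity that limits caspase-8 at the receptor. Its signal was 1363, 1300.3, 1621, 1519 and 1473 in WT and 784, 1025, 1022, 981 and 919 in KO. All KO arrays were below all WT arrays, and KO 6 was the lowest. The mean fell from 1455 ± 127 to 946 ± 100. The fitted fall was 1.53-fold (log2 change -0.62, SE 0.085, limma adjusted p = 2.2e-04). Of the 4 other probe sets of Cflar, 3 gave -0.65, -0.63 and -0.50, and a dim one gave 0.08. Fadd, which bridges receptor and caspase-8, had 104 ± 8.40 against 118 ± 6.88 and did not pass (log2 change 0.17, adjusted p = 0.106). Tradd, the adaptor of the tumour necrosis factor receptor, had a log2 change of -0.10 (95% interval -0.29 to 0.08). Ripk1 is not analysed here.

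Among the 6 genes of mitochondrial release and the apoptosome, Endog was the one that passed. Endog, a nuclease of the mitochondrion, measured 204, 205, 158, 173 and 159 in WT and 169, 137, 141, 144 and 143 in KO. KO 6 lay within the WT range and the other KO arrays below it. The fall was 1.20-fold (log2 change -0.26, SE 0.091, limma adjusted p = 0.0469). It was lost without WT 1, WT 2, WT 4, KO 7, KO 8, KO 9 or KO 10 (adjusted p 0.0730 to 0.107), after quantile normalisation (0.0735) or median centring (0.0622) and without the filter (0.0567), and its other probe set gave -0.09. Cycs, cytochrome c itself, had 2948 ± 434 against 2533.5 ± 182 (log2 change -0.21, adjusted p = 0.117), and passed without WT 3 (0.0481). Its 2 other probe sets past the filter gave -0.23 and -0.31, and the latter, without a suffix, passed when used instead (limma adjusted p = 0.0345). Apaf1, the scaffold of the apoptosome, had 383 ± 71.4 against 354 ± 31.7 (log2 change -0.09, 95% interval -0.36 to 0.17). Xiap, an inhibitor of caspases, had a log2 change of -0.11 (-0.26 to 0.04), Diablo, which displaces Xiap, one of 0.06 (-0.07 to 0.18), and Aifm1, a flavoprotein of the mitochondrion, one of -0.15 (-0.34 to 0.04).

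Dffb encodes a nuclease that cuts DNA in dying cells, and Dffa encodes the inhibitor of that nuclease. Dffa measured 155, 178, 171, 194 and 213 in WT and 138, 143, 141, 159 and 151 in KO. KO 9 lay above WT 1, and so the genotypes overlapped. The fall was 1.21-fold (log2 change -0.28, SE 0.084, limma adjusted p = 0.0244). The call was lost without WT 4, WT 5, KO 7 or KO 8 (adjusted p 0.0549 to 0.0624). Dffb had a log2 change of -0.01 (95% interval -0.19 to 0.17).

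None of the 4 tested genes of the p53 axis passed. Cdkn1a, the cell cycle inhibitor p21, had 2531 ± 76.7 in WT and 2952 ± 403 in KO (log2 change 0.21, adjusted p = 0.0833). Its KO arrays ran from 2382 to 3423, wider than the WT range of 2460 to 2644, and it passed without KO 10 (0.0089). Mdm2, which degrades p53 and is induced by it, had a log2 change of -0.05 (95% interval -0.25 to 0.15). Trp63, a p53 relative that stratified epithelia need, had 676 ± 123 against 540.5 ± 39.4 (log2 change -0.30, adjusted p = 0.0669) and passed without WT 1 (0.0220) or WT 2 (0.0264). Trp73 had a log2 change of -0.11 (-0.27 to 0.05), and Trp53 is not analysed here.

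The 39 genes varied more between WT arrays than between KO arrays. The SD of log2 signal was larger in WT for 28 of the 39, 71.8%, where the same held for 55.0% of all genes. The median SD was 0.135 in WT and 0.088 in KO for the 39, and 0.132 and 0.123 over all genes. For some genes WT 1 and WT 2 lay together, apart from WT 3 to 5. Trp63 read 543 and 544 there, against 730 to 787, and Bcl2 176 and 169, against 239 to 312. Hrk, at 70.4 and 97.5 against 93.6 to 108, did not follow this. The part of this in the larger WT SD was not tested. KO 6 held the lowest or highest KO value for 25 of the 39 (64.1%) and WT 1 the lowest or highest WT value for 23 (59.0%), close to their shares of all genes. Without these 2 arrays, 11 genes were lower and 5 higher: all 14 calls held, and Bid (adjusted p = 0.0119) and Trp63 (0.0271) joined the lower ones. In that fit 31.35% of all genes passed, against 29.24% with all arrays. The 2 arrays stood out in these same values, so the fit is no independent check of the calls.

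**Figure D3:**
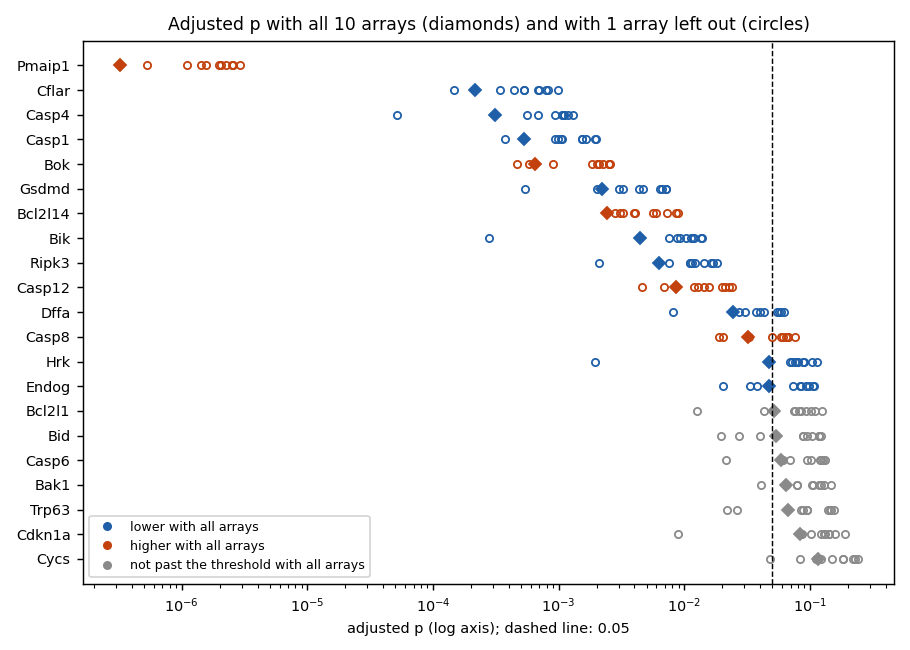
Adjusted p on a log axis for the 14 genes past the threshold and the 7 others that passed in at least 1 of the 10 leave-one-out fits; diamonds are the fit to all 10 arrays, circles the fits without 1 array, and the dashed line is 0.05. The circles of 10 called genes all lie to the left of the line, and those of Dffa, Casp8, Hrk and Endog lie on both sides.

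Beyond the 44, 67 further genes of the same routes were tested, of which 15 were lower and 12 higher in KO, together 40.3% beside 29.2% of all genes. Their median log2 change was -0.01. Of the 7 death receptors and ligands tested, 3 fell and 1 rose. Fas, the receptor that recruits Fadd and caspase-8, measured 793, 1051, 890.0, 872 and 903 in WT and 317, 475, 446, 438 and 493 in KO. All KO arrays were below all WT arrays, and KO 6 was the lowest by a wide margin. The fall was 2.06-fold (log2 change -1.04, SE 0.11, limma adjusted p = 3.4e-05). Tnf, the ligand of the tumour necrosis factor receptors, fell by a like amount, from 258 ± 27.5 to 118 ± 17.6 (log2 change -1.04, adjusted p = 1.4e-05). Tnfsf10 (TRAIL), a death ligand, fell from 112 ± 22.4 to 78.6 ± 8.04 (log2 change -0.42, adjusted p = 0.0244), a call lost without WT 1, WT 3, WT 4 or KO 9. Tnfrsf21 (DR6) rose from 171 ± 4.16 to 197 ± 14.1 (log2 change 0.18, adjusted p = 0.0492), a call that held only without KO 8 among the leave-one-out fits.

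Of the 8 IAP proteins and their antagonists, 3 fell and 1 rose. Naip5, an inflammasome sensor of flagellin, fell from 214 ± 27.0 to 93.0 ± 30.8 (log2 change -1.12, adjusted p = 8.1e-04), although near-identical copies of this gene make its reading uncertain. Htra2, a mitochondrial protease, fell from 478 ± 36.8 to 367 ± 45.4 (log2 change -0.37, adjusted p = 0.0080). Birc2 (cIAP1), which keeps the receptor complex in its survival form, fell from 2376 ± 202 to 1897 ± 274 (log2 change -0.33, adjusted p = 0.0290), a call lost without WT 3, WT 4 or WT 5. Septin4, whose ARTS isoform opposes Xiap, rose from 103 ± 10.3 to 140 ± 27.5 (log2 change 0.38, adjusted p = 0.0274), lost without WT 1, WT 4, WT 5, KO 7 or KO 8. The probe set does not show which isoform it reads.

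Of 9 other Bcl2-related genes, 2 rose and 1 fell. Bag3, a co-chaperone of stressed cells, rose from 423 ± 56.2 to 657 ± 55.7 (log2 change 0.62, adjusted p = 4.3e-04). Bcap31, of the endoplasmic reticulum, rose by 0.16 (adjusted p = 0.0400) and Bag1, another co-chaperone, fell by 0.19 on the log2 scale (0.0275). Both calls were lost in leave-one-out fits, that of Bcap31 in all except those without WT 3 or KO 6, and that of Bag1 without WT 2, WT 4, KO 7, KO 8 or KO 9. Of 6 channel and mitochondrial genes, 2 fell and 1 rose. Aifm2, now known as the ferroptosis suppressor FSP1, fell from 71.8 ± 6.17 to 40.1 ± 3.24 (log2 change -0.65, adjusted p = 3.4e-05), a size that ran from -0.38 with 64 added to the signal to -0.83 with 1. Vdac3 fell by 0.26 on the log2 scale (0.0196) and Vdac1 rose by 0.18 (0.0119), both channels of the outer mitochondrial membrane.

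Of 10 genes of lytic death and inflammasomes, 2 rose and 2 fell. Il18, the cytokine that caspase-1 matures, measured 118, 119, 169, 132 and 135 in WT and 655, 637, 761.5, 573 and 527 in KO. The lowest KO array was far above the highest WT array. The rise was 4.29-fold (log2 change 2.10, SE 0.11, limma adjusted p = 1.8e-07), beside the fall of Casp1 on the same arrays. Gsdma, a gasdermin of epithelia with close copies in the mouse, rose from 179 ± 12.7 to 249 ± 30.2 (log2 change 0.44, adjusted p = 0.0020). Ninj1, which ruptures the membrane of dying cells, fell from 864 ± 41.7 to 678 ± 54.4 (log2 change -0.35, adjusted p = 0.0018), but with probe sets without suffixes alone it gave -0.20 and did not pass (0.118), and the mean of its probe sets gave -0.18 and passed. Mlkl, the pore of necroptosis, fell from 83.1 ± 8.94 to 63.4 ± 12.7 (log2 change -0.33, adjusted p = 0.0496), a call that held only without WT 1 or KO 7 among the leave-one-out fits.

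Among 20 p53 targets, 5 rose and 3 fell, together 40% beside 29.2% of all genes. Their median log2 change was 0.16, beside -0.03 over all genes. Perp, a p53 target that is also a desmosome protein of stratified epithelium, rose from 1957 ± 99.4 to 3739 ± 305, with no overlap (log2 change 0.93, adjusted p = 1.1e-06). Eda2r, a receptor of the tumour necrosis factor family, rose from 25.2 ± 5.69 to 62.4 ± 13.4 (log2 change 0.92, adjusted p = 1.2e-04), a size that for so dim a gene depends on the added constant, from 0.50 with 64 to 1.28 with 1. Zmat3, an RNA-binding p53 target, rose from 329 ± 26.7 to 467 ± 27.6 (log2 change 0.48, adjusted p = 2.9e-04). Cd82, a tetraspanin, fell from 4143 ± 265 to 3275 ± 137 (log2 change -0.34, adjusted p = 7.6e-04), but the mean of its probe sets gave -0.13 and did not pass (0.104). The other 4 calls, named after their values were seen, were Sesn1 (0.48) and Btg2 (0.47), which rose, and Gadd45b and Gadd45g (both -0.38), which fell. The other 12 of the 20 did not pass. The summed signal of 6 genes induced by cell dissociation, such as Fos and Jun, was 35375 to 45047 in WT and 41128 to 54160 in KO, with KO 6 the highest. Jun rose and the other 5 did not pass. That of 7 cornified cell markers was 6518 to 9839 in WT and 11125 to 14286 in KO, with 3 of the 7 higher and 2 lower. Sprr1a, Sbsn and Lor rose (log2 changes 1.51, 1.53 and 0.62), while the keratins Krt10 (-2.47) and Krt1 (-1.37) fell. The part of dissociation or of cornified cells in the p53 target values was not tested.

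Of 4 genes of the endoplasmic reticulum stress route, Trib3, a pseudokinase induced by it, fell from 75.5 ± 14.8 to 38.6 ± 8.49 (log2 change -0.74, adjusted p = 0.0011; -0.44 with 64 added to the signal and -0.95 with 1). The other 3 did not pass. The 3 regulators of BH3-only genes, Foxo1, Foxo3 and E2f1, did not pass either, nor did Casp14 (log2 change 0.07, 95% interval -0.07 to 0.21). Fasl and Aim2 did not pass the filter, and 8 listed genes are not analysed here.

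**Figure D4:**
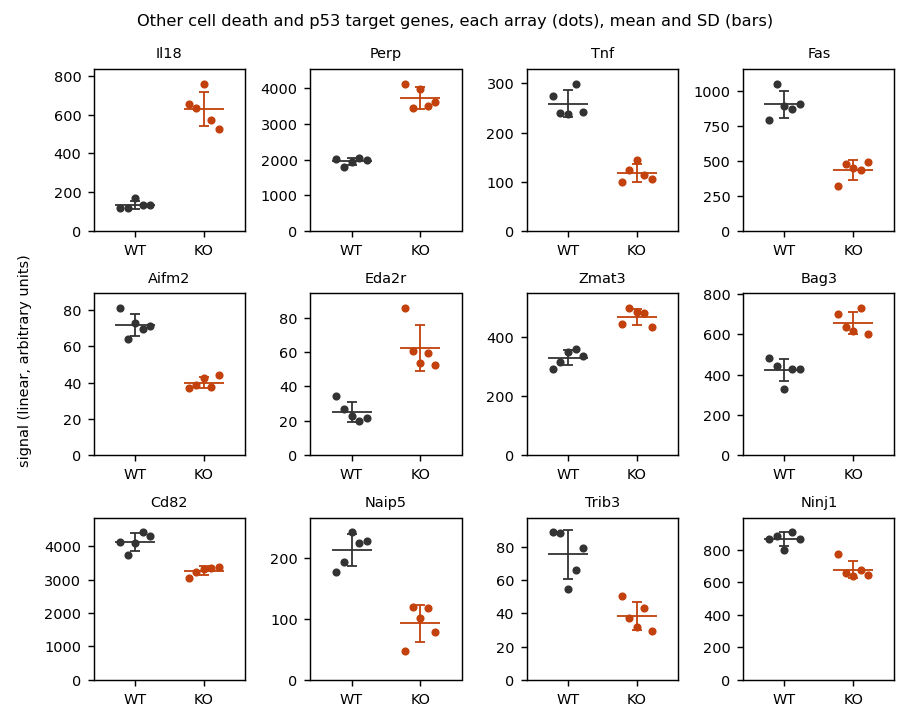
Signal on each array, on a linear axis from 0, of the 12 named pathway genes outside the 44 with the smallest adjusted p; dots are arrays in the order of their numbers, wide bars the mean and thin bars the SD of 5. WT and KO do not overlap in any of the 12, which the choice by smallest adjusted p favours. Over all genes tested 22.1% did not overlap. Il18 runs from 118 to 169 in WT and from 527 to 761.5 in KO.

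Markers of other cell types shifted in part. Of 9 thymocyte markers none passed, and their summed signal was 1171 to 1539 in WT and 769 to 1604 in KO, lowest on KO 6. All 4 endothelial markers rose, where 13.0% of all genes did, with a sum of 98.9 to 235 in WT and 221 to 305 in KO. WT and KO values overlapped for all 4. Pecam1 and Emcn lay below the 40th percentile on WT 2 to 5 and passed the filter only with the KO arrays. The filter thus favoured a rise of these genes, and the count is not comparable with the 13.0%. The sum of 4 B cell markers was 354 to 415 in WT and 290 to 318 in KO. Of these, Cd79b fell (229 ± 19.4 to 141 ± 10.2), Ms4a1 rose (61.2 ± 5.20 to 83.3 ± 6.44, adjusted p = 0.0029), Cd22 did not pass and Cd79a did not pass the filter. The sum of 4 fibroblast markers, of which 1 rose, was 1537 to 1850 in WT and 1717 to 2429 in KO. That of 2 cortical epithelial markers, of which Ly75 fell, was 171 to 285 in WT and 89.1 to 377 in KO. None of these markers was at or below the 40th percentile on all arrays, but Cd79a was above it on WT 2 alone, at 22.3 against 22.1.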

How the data were processed

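Total RNA of 10 sorted mTEC samples was hybridised to 1-colour Affymetrix arrays. The authors' deposited intensity values, linear signals for 45101 probe sets, were made with MAS5 (version not given), per the submitters' processing notes. No further normalisation was applied in the main fit. The platform annotation gave 34958 probe sets a single symbol, 932 several and 9211 none. Symbols were updated by Entrez ID (34754 matched) to the RefSeq GRCm38.p6 table, and 23581 probe sets passed a filter of signal above the 40th percentile of the array on at least 5 of 10 arrays. Per gene, the probe set with the highest mean was used. limma 3.58.1 in R 4.3.3 fitted log2(signal + 16), KO minus WT, with trended robust eBayes and Benjamini-Hochberg adjustment over 14087 genes, at a threshold of 0.05. The analysis was tested on simulated data. Leave-one-out fits kept the genes and probe sets chosen on all arrays. Precision rests on 5 arrays a genotype, and MAS5 scaling would hide a change of all genes together. The replicate numbers are not shared between genotypes, so nothing pairs arrays. The members and lists were chosen with earlier results of these data known. By rule, every member was named and, of each other subgroup, up to 4 called genes, those of smallest adjusted p. The alternatives tried were 14 settings and 10 leave-one-out fits.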

Additional observations from a re-analysis of the deposited data

Results flagged for a closer look

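Of 124 groups of 5 arrays checked, 17 held 1 array far from the other 4 by Dixon's criterion, and chance alone gives about 1 in 20. KO 6 was that array in 9 of the 17. It was low for Bmf (128, the others 179 to 196), Trp73 (35.5, the others 40.7 to 43.0), Fas (317, the others 438 to 493), Birc2 (1429, the others 1944 to 2147), Htra2 (288, the others 374 to 406) and Vdac3 (1393, the others 1668 to 1783). It was high for Endog (169, the others 137 to 144), Ninj1 (772, the others 640.0 to 673) and Eda2r (85.6, the others 52.6 to 60.8). WT 2 was low for Bcl2l2 (378, the others 414 to 424) and Bcl2l14 (413, the others 481 to 507) and high for Bad (209, the others 195 to 199). WT 1 was high for Casp1 (1752, the others 1353 to 1450.3). KO 9 was low for Casp12 (123, the others 154 to 163) and Tnfsf10 (64.7, the others 79.8 to 85.5). KO 8 was low for Casp9 (58.3, the others 62.9 to 64.3) and high for Vdac1 (3033, the others 2743 to 2784).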

How the results depend on the processing

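No called member changed sign under any of the 24 alternatives, and 6 of the 25 not called did. Of the 14 calls, 10 held in all 10 leave-one-out fits; the exceptions were Dffa, Casp8, Hrk and Endog. Over these fits 6 to 12 members were lower and 4 to 5 higher, while 24.33% to 29.86% of all genes passed. With WT 1 and KO 6 together as a block, 14 members were lower, and the 14 calls of the main fit held. With that block 36.19% of all genes passed, against 29.24% in the main fit. At an adjusted p of 0.01, 1313 of all genes were lower and 1160 higher, and 8 of the other pathway genes were lower and 7 higher. With probe sets without suffixes alone, 8 other pathway genes were lower, and 28.3% of all genes passed. With 64 in place of 16 added to the signal, the dim genes Aifm2 and Trib3 changed by -0.38 and -0.44, and with 1 by -0.83 and -0.95. No paired analysis was possible because the genotypes share no replicate number. Genes near background are read with the least precision, and 5 arrays a genotype limit what small changes can be seen.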
